A study of Petunia x hybrida with 10 samples.

Results

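Peaks of N1-methyladenosine (m1A) and peaks titled N6-methyladenosine (m6A) were compared in untreated petunia petals, from the 5 lists of immunoprecipitated RNA peaks that came from air among the 10 lists of the series. The lists were chosen by their treatment label and title. All came from corollas of the cultivar Mitchell, a laboratory line of garden petunia, after 16 h in air. Tested here were 3 m1A lists, named m1A 1 to m1A 3 below, against 2 lists titled m6A, named m6A 1 and m6A 2. The remaining 5 lists, from corollas given ethylene for 16 h (2 µl per litre in the m6A labels, no dose in the m1A labels), enter a single comparison near the end. No label states that libraries came from separate plants, so p-values measure only the spread between these libraries, which may be technical.

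N1-methyladenosine carries its methyl group on the face of the base that pairs with uridine and so blocks that pairing. It is best known from transfer and ribosomal RNA. N6-methyladenosine still pairs, is written on messenger RNA by a methyltransferase complex and is read by YTH-domain proteins. In messenger RNA of plants and animals it is known to gather toward the 3′ end of transcripts. Both are mapped by fragmenting RNA, pulling fragments down with an antibody and finding where reads pile up, so a peak marks a stretch of bound fragments and not a single base.

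The identity of the antibody limits what either kind of list can be said to show. The protocol of the m6A libraries is worded as that of the m1A libraries and names an anti-m1A antibody, catalogue number 202003 of its supplier, eluted with N1-methyladenosine. That catalogue number is best known for a polyclonal antibody against m6A. Which mark each antibody bound cannot be told apart from the files, and "m1A" and "m6A" below follow the titles and labels.

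The m1A lists held 15593, 17573 and 6760 peaks, covering 3041, 3435 and 1298 kb, and the m6A lists held 1605 and 1593 peaks, covering 587 and 544 kb. The third m1A list was the shortest of its mark. Depth is unknown, because no list gives reads. They were also cut at different strengths, since the lowest score of a peak was 100 to 100.21 in the m1A lists and 13.01 and 13.1 in the m6A lists. A score of exactly 3100 was held by 39.3, 53.8 and 67.3% of m1A peaks and by 5.30 and 5.21% of m6A peaks. Coordinates are those of the deposited scaffolds (prefix Peaxi162, an assembly of Petunia axillaris). No gene annotation or genome sequence was used here, so no region is assigned to a gene, and the tissue label could not be checked against marker genes.

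The first comparison was of peak width. The m1A peaks were narrower than the m6A peaks in every list. Median widths were 159, 158 and 160 bp in the m1A lists, against 286 and 273 bp in the m6A lists. The 3 m1A medians lay within 2 bp of each other although the lists differed in length, and the 2 kinds of list did not overlap. The mean of the medians was 159 ± 1.00 bp for m1A (SD, n = 3) and 279.5 ± 9.19 bp for m6A (SD, n = 2), a difference of -120.5 bp. The exact two-sided permutation p was 0.1 (adjusted p = 0.167 over 5 tests). That is the smallest p that 10 regroupings of 5 libraries allow, so none of the 5 tests between marks could pass 0.05.

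The whole range of widths was moved, not only the middle. The 25th percentile was 80, 81 and 80 bp in the m1A lists and 170 and 163 bp in the m6A lists. The 90th percentile was 391, 390.0 and 361 bp for m1A and 707 and 652 bp for m6A. Peaks under 50 bp made up 12.1, 12.0 and 12.5% of the m1A lists, against 1.37 and 2.01% of the m6A lists. Peaks over 500 bp showed the opposite order, with 5.73, 5.66 and 4.69% in m1A lists and 19.3 and 16.2% in m6A lists. The widest peak of both m6A lists was 2889 bp long, whereas the widest m1A peaks differed between lists (2441, 3716 and 1335 bp).

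**Figure D1:**
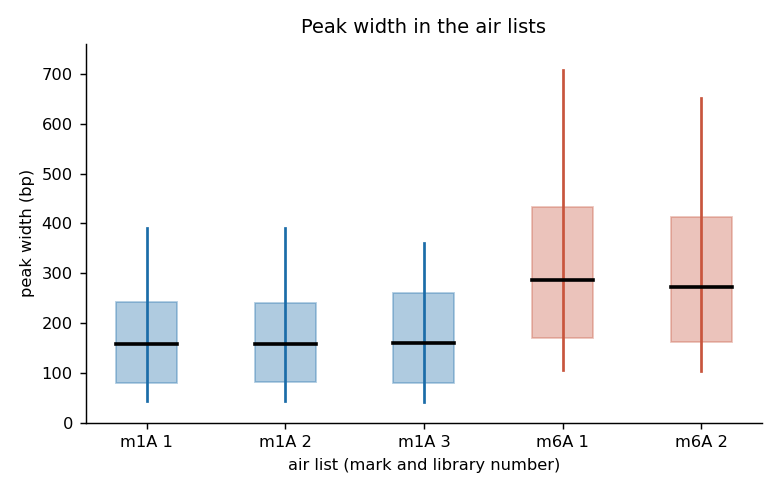
Peak width in bp (vertical axis) in the 3 m1A and 2 m6A air lists (horizontal axis); black lines are medians, boxes span the 25th to the 75th percentile and whiskers the 10th to the 90th. The m1A medians sit at 158 to 160 bp and the m6A medians at 286 and 273 bp, and all 3 m1A boxes lie lower than the 2 m6A boxes.

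The difference in width was also present among high-scoring peaks. Among peaks with a score of at least 3100, the mean of the m1A medians minus that of the m6A medians was -142 bp, and among those with a score of at least 100 the difference was -140.5 bp. A score of exactly 3100 was far more common among m1A peaks (39.3 to 67.3% of a list) than among m6A peaks (5.30 and 5.21%). The score is set by the peak caller for each library alone, so that an equal score need not mean equal strength in 2 lists.

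Clustering along scaffolds was compared next. As deposited, m1A peaks lay much closer together. Another peak of the same list stood within 1 kb of 33.6, 35.02 and 22.1% of m1A peaks, against 3.05 and 3.83% of m6A peaks. The m1A shares did not overlap the m6A shares, and the mean difference was 26.8 percentage points (exact permutation p = 0.1, adjusted p = 0.167). The m1A lists held 13.8, 15.2 and 7.01 peaks for each scaffold that had one, and the m6A lists 2.51 and 2.46. These means differed by 9.52 peaks (exact permutation p = 0.2, adjusted p = 0.25). The median gap between neighbouring peaks was 5002, 4373 and 16627 bp for m1A and 130016 and 121056 bp for m6A.

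With lists of equal length, nearly all of this difference was gone. When every list was thinned to the 1593 peaks of the shortest, by an exact formula for drawing peaks without replacement, the expected share with a neighbour within 1 kb was 3.83, 3.56 and 5.53% for m1A, against 3.03 and 3.83% for m6A. The thinned share of m1A 2 lay between the 2 m6A values, that of m1A 1 was level with m6A 2, and that of m1A 3 lay above both. The difference in means was then 0.877 percentage points (exact permutation p = 0.5). Peaks per scaffold became 2.53, 2.52 and 2.58 for m1A and 2.502 and 2.46 for m6A, a difference of 0.0622 (exact permutation p = 0.2). Thinned shares with a neighbour within 5 kb were 13.04, 12.5 and 17.8% for m1A and 13.3 and 13.2% for m6A.

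**Figure D2:**
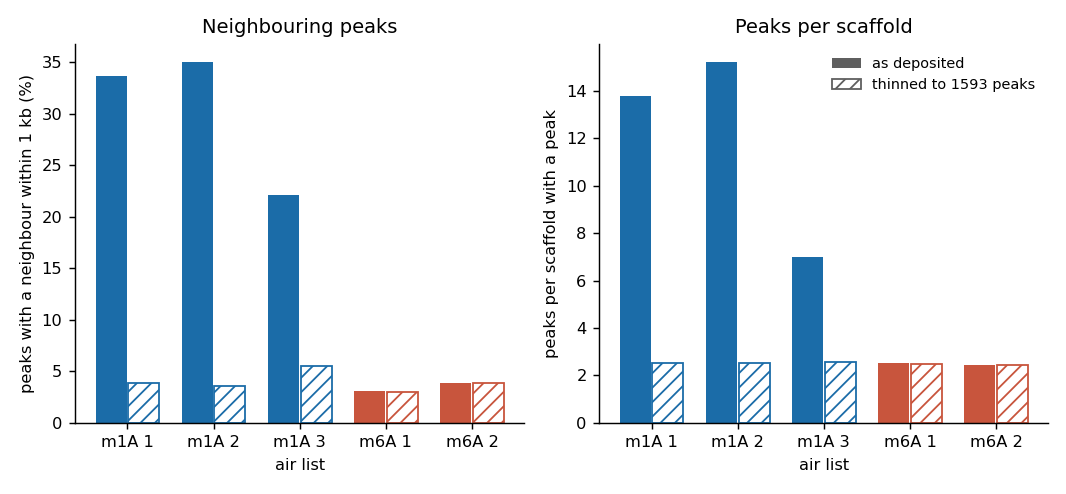
Share of peaks with another peak of the same list within 1 kb (left) and peaks per scaffold with a peak (right) in each air list, as deposited (filled bars) and after thinning to 1593 peaks (hatched bars). The m1A bars of 22.1 to 35.02% drop to 3.56 to 5.53% after thinning, beside 3.03 and 3.83% in the m6A lists.

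Very short gaps were found in the m1A lists. The smallest gap between neighbouring peaks was 1, 5 and 15 bp in the m1A lists, against 277 and 343 bp in the m6A lists. Gaps under 200 bp were 0.857, 0.914 and 0.121% of m1A gaps and 0% of m6A gaps. Among gaps of at most 5 kb, the median was 1257, 1268 and 1295 bp for m1A and 1801 and 1672 bp for m6A. At least 2 neighbours within 1 kb were found for 4.12, 4.46 and 1.69% of m1A peaks, against 0.0623 and 0.0628% of m6A peaks. These 4 measures were not thinned to equal length.

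The marks occurred on many of the same scaffolds. An m1A peak of any air list was found on 1220 scaffolds and an m6A peak on 757, and 728 scaffolds held both. These were 59.7% of the m1A scaffolds and 96.2% of the m6A scaffolds. Scaffolds with m1A alone numbered 492 and those with m6A alone 29. For single lists, 88.6 to 95.9% of the scaffolds of an m6A list held a peak of a given m1A list (93.01% on average over 6 pairs), and 52.9 to 59.8% of the scaffolds of an m1A list held a peak of a given m6A list. Peaks followed the same division, since 85.7 to 86.3% of m1A peaks and 98.5 to 98.7% of m6A peaks lay on scaffolds with both marks.

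Scaffolds with both marks also held more m1A peaks, and their last peak of either mark ended further along the scaffold. The last peak, of either mark, ended at a median of 822 kb on scaffolds with both marks. On scaffolds with m1A alone the last m1A peak ended at a median of 252 kb. The median number of m1A peaks per list was 10 on scaffolds with both and 2.33 on scaffolds with m1A alone. Over the 1249 scaffolds with either mark, mean counts of m1A and m6A peaks ran together (Spearman rho 0.639, Pearson r 0.832, a description across scaffolds). Counts also ran with the position of the last peak, with rho of 0.742 for m1A and 0.549 for m6A. The last position itself tends to grow with the number of peaks, and scaffold length was not measured. Between single lists rho was 0.852 to 0.920 within m1A, 0.759 within m6A and 0.548 to 0.609 between the marks.

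The scaffolds richest in each mark were partly the same, with 3 of the 5 leading m1A scaffolds among the 5 leading m6A scaffolds. Peaxi162Scf00016 led the m1A lists with 213, 236 and 99 m1A peaks, and had 13 and 11 m6A peaks, which placed it 11th for m6A. Peaxi162Scf00003 led the m6A lists with 157, 169 and 54 m1A peaks and 23 and 21 m6A peaks. Peaxi162Scf00038 ranked second for m1A, with 202, 227 and 83 m1A peaks and 20 and 15 m6A peaks. The mean m1A count per mean m6A count ranged over these leading scaffolds between 15.2 on Peaxi162Scf00016 and 5.05 on Peaxi162Scf00129, which had 91, 109 and 35 m1A peaks and 16 and 15 m6A peaks.

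Loci were formed by joining peaks of all 5 lists across gaps of at most 1 kb. Of 21994 loci, 20921 held m1A, 2193 held m6A and 1120 held both. Loci with both marks were thus 5.35% of m1A loci and 51.1% of m6A loci (95% exact binomial interval 49.0 to 53.2%, which covers counting error over loci only). By definition a locus with both marks has at least 2 peaks. Such loci spanned a median of 713 bp and 3 peaks, against 233 bp and 1 peak for m1A alone and 270.0 bp and 1 peak for m6A alone. Peaks of all 5 lists came together in 57 loci. The share of m6A loci with m1A depended on the joining gap, with 44.6% at 500 bp and 72.6% at 5 kb.

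Direct overlap was compared next. Overlapping peaks share a locus by definition, so overlap cannot be more common than sharing a locus. With peaks merged within each mark over its air lists, 37.8% of m6A regions (863 of 2285) overlapped an m1A region. The lists of a mark resembled each other more than they resembled lists of the other mark. The Jaccard index, the sequence in both lists over that in either, was 20.9, 12.6 and 13.04% for the m1A pairs and 41.5% for the m6A pair, against 1.498 to 2.44% for the 6 pairs of an m1A and an m6A list. No pair between marks came near a pair within a mark. The mean within marks exceeded that between marks by 19.98 points (exact permutation p = 0.1, adjusted p = 0.167). The index cannot exceed the shorter cover over the longer, which was 37.8 to 88.5% for m1A pairs, 92.8% for the m6A pair and 15.8 to 45.2% between marks. The part of unequal length in these values was not tested.

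Seen from each side, the overlap had a different size. Of m1A peaks, 1.91 to 2.43% overlapped a peak of a given m6A list, and this share hardly moved with the length of the m1A list. Of m6A peaks, 22.9 and 21.2% overlapped m1A 1, 24.2 and 23.4% overlapped m1A 2, and 8.85 and 7.97% overlapped the shorter m1A 3 (m6A 1 before m6A 2 in each). The mean over 6 pairs was 18.1%, and 22.9% without m1A 3. When the longer m1A lists were thinned to the length of m1A 3 (chosen after seeing the data), the 6 pairs came to 7.97 to 10.1%. Within m1A, 35.8% of m1A 1 and 31.9% of m1A 2 peaks overlapped each other's list, 15.5% of m1A 1 and 15.6% of m1A 2 peaks overlapped m1A 3, and 35.9 and 40.8% of m1A 3 peaks overlapped m1A 1 and m1A 2. Within m6A the shares were 56.9% of m6A 1 and 57.3% of m6A 2 peaks.

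**Figure D3:**
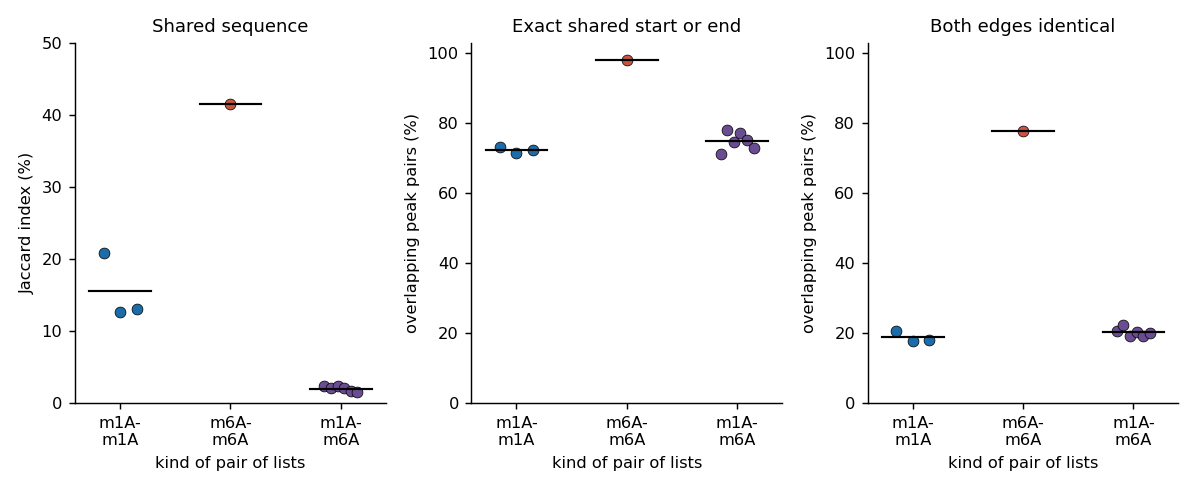
Jaccard index (left), share of overlapping peak pairs with an exact shared start or end (middle) and share with both edges identical (right) for pairs of air lists within m1A (3 pairs), within m6A (1 pair) and between the marks (6 pairs). Points are pairs of lists and lines are means; pairs between marks are lowest in shared sequence (1.498 to 2.44%) and close to the m1A pairs in shared edges.

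Overlap with the other mark was also counted by how many lists of its own mark a region was found in. Peaks merged within each mark gave 30483 m1A regions and 2285 m6A regions. An m6A region overlapped 3.11% of m1A regions in all 3 lists (46 of 1480), 3.16% of those in 2 lists (199 of 6307) and 3.01% of those in 1 list (683 of 22696). Median width was 328.5 bp for m1A regions in 3 lists, 214 bp in 2 and 125 bp in 1, so the share stayed near 3% while the regions widened. An m1A region overlapped 42.9% of m6A regions in both lists (392 of 913) and 34.3% of those in 1 list (471 of 1372), with median widths of 299 and 260 bp. These differences between classes of regions were not tested.

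Wide and strong m6A peaks were overlapped most often. With each m6A list cut into 4 equal groups by width, m1A lists overlapped 5.75 to 17.6% of the narrowest m6A peaks and 12.6 to 37.2% of the widest. Cut likewise by score, they overlapped 5.26 to 18.4% of the lowest and 15.2 to 34.9% of the highest. In each of the 6 pairs the top group had the highest share, by width and by score. A wider peak has more bases at which an overlap of 1 bp can occur. Width and score were not separated, and the part of width in these shares was not tested. The m6A peaks that overlapped m1A had median widths of 334 to 353 bp, and the others 255 to 283 bp. Overlapping m1A peaks were also wider, with medians of 194 to 208 bp against 156 to 159 bp for the other m1A peaks. A score of 3100 or more was held by 53.9 to 67.4% of the overlapping peaks of m1A 1 and m1A 2, against 40.5 to 54.7% of their other peaks, whereas in m1A 3 the shares were 64.8 and 68.99% against 68.0 and 67.9%.

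**Figure D4:**
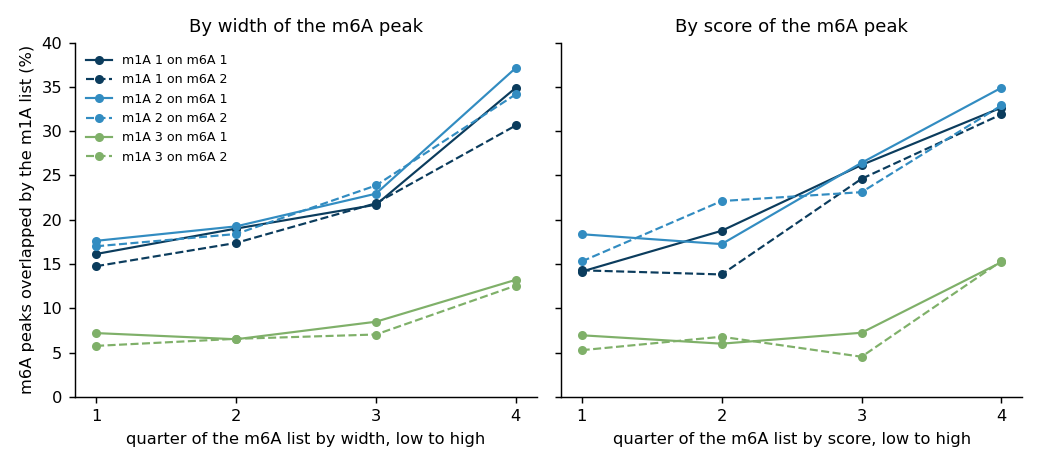
Share of m6A peaks overlapped by an m1A list (vertical axis) in 4 equal groups of the m6A list by width (left) and by score (right), 1 line per pair of lists; solid lines are m6A 1 and dashed lines m6A 2. Every line is highest in the top group, and the lines of m1A 3 lie lowest.

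Where the marks overlapped, the m1A peak usually lay within the m6A peak. The m1A peak was inside a wider m6A peak in 72.3 to 75.9% of overlapping pairs of peaks and had identical bounds in a further 19.2 to 22.4%. The m6A peak lay inside a wider m1A peak in 0 to 2.46%, and the peaks crossed in 2.87 to 6.07%. An m1A peak covered a median of 52.1 to 60.6% of the m6A peak it overlapped. Pairs of m1A lists were less one-sided. Between m1A 1 and m1A 2, the peak of m1A 1 lay inside in 31.6% and that of m1A 2 in 30.6%. The peak of m1A 3 lay inside that of m1A 1 in 40.3% and that of m1A 2 in 42.3%. The reverse held in 23.6 and 23.1%. Those lists had nearly equal widths, whereas overlapping m1A peaks had medians of 194 to 208 bp against 334 to 353 bp for m6A. A narrower peak can lie inside a wider one by width alone, and the part of width in the nesting was not tested.

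Peak edges coincided to the base in most overlaps. At least 1 edge was shared exactly by 73.1, 71.5 and 72.2% of overlapping peaks in m1A pairs and by 97.9% in the m6A pair, against 71.2 to 78.1% (mean 74.9%) between the marks. The shares between the marks spanned those of the m1A pairs and lay below that of the m6A pair. The mean within marks minus the mean between marks came to 3.797 points (exact permutation p = 0.7, adjusted p = 0.7), and its sign turned when either m6A list was left out (-3.82 without m6A 1 and -1.41 without m6A 2), since the m6A pair then no longer counted. Both edges were shared by 20.7, 17.9 and 18.1% in m1A pairs and 77.7% in the m6A pair (709 of 913), against 19.2 to 22.4% between marks. Starts were shared by 48.1 to 53.6% and ends by 42.5 to 46.9% of overlapping m1A and m6A peaks. With a tolerance of 10 bp the mean between marks was 77.8%. No m1A peak began exactly where an m6A peak ended, or the reverse, in any of the 6 pairs (0 cases).

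The strand column of the m6A lists, with 765 plus and 840 minus peaks in m6A 1 and 750 and 843 in m6A 2, allowed the edges to be read 5′ to 3′. The 3′ edge of the m6A peak was shared by 48.3 to 54.2% of overlapping m1A peaks and the 5′ edge by 42.7 to 46.4%. In each of the 6 pairs the 3′ share was the higher one. The gap was smallest in m1A 3 with m6A 1 (48.3 against 46.2%) and largest in m1A 2 with m6A 2 (53.3 against 44.4%). The m1A lists have no strand column, so the strand of an overlapping m1A peak is not known.

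Overlaps were also divided by whether the m6A edges were the same in both m6A libraries. Where an m6A peak had the same start and end in both m6A lists, 81.7 to 84.4% of overlapping m1A peaks shared an edge with it (77 to 205 overlaps per pair of lists). Where the m6A edges differed between the m6A lists, the share was 18.2 to 52.8% (11 to 38 overlaps). For m6A peaks found in 1 list it was 65.5 to 80.0% (41 to 166 overlaps). The first class lay above both others in each of the 6 pairs of lists, by least in m1A 1 with m6A 2 (81.7 against 80.0%). By definition that class holds the same peaks in both m6A lists, so its share for an m1A list is the same against each. This is a description over overlaps that share m6A peaks.

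In 25 places an m1A region of all 3 lists overlapped an m6A region of both lists, on 24 scaffolds, 12 on the plus and 13 on the minus strand. They were 1.69% of the 1480 m1A regions in all 3 lists. Of all 30483 m1A regions, 1.38% (421) overlapped an m6A region of both lists, a share close to this one. The m1A region lay inside the m6A region in 25 of 25, and the bounds were identical in 13. The overlap ranged between 5 and 1059 bp, with a median of 334 bp. Both m6A lists gave the same start and end in 24 of the 25. An edge was shared in each of the 6 pairs of lists at 17 places and in none at 2.

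The 10 places described next were chosen for their shared edges and then for the length of the overlap, so their edges are a description and support nothing. At Peaxi162Scf00044 1218768 to 1219195 (minus strand) all 5 lists held a peak of 428 bp with the same start and end. At Peaxi162Scf00784 61313 to 61576 (plus) all 5 lists held the same peak of 264 bp. These were the 2 of the 10 where neither edge differed between lists, although the scores did.

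At 3 places on the plus strand every m1A peak ended before the m6A peaks. At Peaxi162Scf00045 494695 to 495666 (plus), the m1A peaks were 885, 863 and 184 bp long and the m6A peaks 972 bp in both lists, and all 5 began at 494695. At Peaxi162Scf00227 752145 to 752699 (plus), the m1A peaks were 442, 456 and 341 bp long and both m6A peaks 555 bp, with 1 start in all. At Peaxi162Scf00195 797931 to 798378 (plus), m1A peaks of 185, 155 and 153 bp stood against m6A peaks of 448 bp. Each of these 3 shared its 5′ edge by the m6A strand.

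On the minus strand the common start is the 3′ edge. Peaxi162Scf00740 491210 to 491543 had m1A peaks of 334, 334 and 237 bp and m6A peaks of 334 bp. Peaxi162Scf00037 1518687 to 1518953 had m1A peaks of 267, 62 and 79 bp and m6A peaks of 267 bp. Peaxi162Scf00038 2476671 to 2476902 had m1A peaks of 232, 51 and 198 bp and m6A peaks of 232 bp. In these 3 the peak of m1A 1 spanned the whole m6A peak, and at least 1 other m1A peak was shorter.

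The remaining 2 places differed in which edge held. Peaxi162Scf01221 100689 to 100873 (plus) shared its end in all 5 lists, with m1A peaks of 177, 172 and 68 bp and m6A peaks of 185 bp. At Peaxi162Scf00432 447852 to 448233 (plus), m1A peaks of 374, 377 and 382 bp met m6A peaks of 382 bp, and no single edge was common to all 5. Of the 10 places, 8 had 1 start in all 5 lists and 3 had 1 end, and over all 25 places these counts were 12 and 8.

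No m6A peak of an air list lay within 1 kb of 1414 of the 1480 m1A regions in all 3 lists (95.5%), against 94.9% of all 30483 m1A regions. No m1A peak lay within 1 kb of 420 of the 913 m6A regions in both lists (46.0%), against 48.8% of all 2285 m6A regions. The widest such m1A region, Peaxi162Scf00064 1440929 to 1444058, spanned 3130 bp, of which peaks covered 1431, 2284 and 543 bp in the 3 lists, and the nearest m6A peak was 23138 bp away. Peaxi162Scf00199 257030 to 259939 followed with 2910 bp, covered over 666, 2910 and 1096 bp. Peaxi162Scf00198 864961 to 867810, Peaxi162Scf01112 266753 to 269403 and Peaxi162Scf00274 92974 to 95549 were 2850, 2651 and 2576 bp wide. In each of these 5 regions the covered length differed between the 3 m1A lists.

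The widest m6A regions without m1A, chosen likewise by their merged width, had 1 peak in each list. Peaxi162Scf00160 507204 to 508811 (plus) was a peak of 1608 bp in both m6A lists, with the nearest m1A peak 14502 bp away. Peaxi162Scf00983 16935 to 18182 (plus) was 1248 bp in both, with m1A 1910 bp away. Peaxi162Scf00691 535575 to 537215 (minus) had m6A peaks of 1618 and 1641 bp, and Peaxi162Scf00047 172820 to 174136 (minus) of 1230 and 1317 bp. Peaxi162Scf00045 171441 to 172691 (plus) had m6A peaks of 1180 and 1251 bp, and its nearest m1A peak, 1120 bp away, was only just beyond the limit. The scaffolds of these 5 regions held 36 m1A regions (Peaxi162Scf00691), 101 (Peaxi162Scf00160), 241 (Peaxi162Scf00047), 248 (Peaxi162Scf00045) and 19 (Peaxi162Scf00983).

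The neighbourhood of m6A peaks was mapped by counting m1A midpoints by distance. Within 500 bp of an m6A midpoint there were 25.5 and 23.9 m1A peaks per 100 m6A peaks for m1A 1, 28.04 and 27.1 for m1A 2, and 9.41 and 8.79 for m1A 3. Between 500 bp and 5 kb the density per kb was 7.06 and 7.39 for m1A 1, 8.04 and 8.44 for m1A 2, and 2.87 and 3.03 for m1A 3. The nearest kb thus held 2.90 to 3.61 times the density of the flanks in all 6 pairs. The same ratio for 1 m6A list around the other was 33.8. Both ratios include overlapping peaks, and the first mostly restates the direct overlap. The 500 bp bins on either side of the m6A midpoint held 3.08 to 12.4 m1A peaks per 100 m6A peaks, same midpoints aside. Without overlapping pairs they held 0.314 to 1.88, although peak widths keep the midpoints of such pairs apart.

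The flanks were uneven. Between 500 bp and 5 kb, 646 peaks of m1A 1 lay on the 3′ side of m6A 1 peaks by the strand column and 374 on the 5′ side. For m1A 2 these counts were 755 and 407, and for m1A 3 they were 271 and 144. Around m6A 2 the 3′ and 5′ counts were 643 and 417 for m1A 1, 761 and 449 for m1A 2, and 297 and 138 for m1A 3. The 3′ side held 60.7 to 68.3% in all 6 pairs of lists. It held 60.5 to 68.6% within 5 kb when each overlapping pair of an m1A and an m6A peak was left out. An m1A peak that overlapped 1 m6A peak was still counted there around other m6A peaks. For the m6A lists around each other the counts come from 1 set of peak pairs seen from both ends, so their 2 sides mirror each other and give no value to set beside these shares. Counts share peaks between pairs of lists and were not tested. A strand column that was reversed throughout would turn the sides round.

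**Figure D5:**
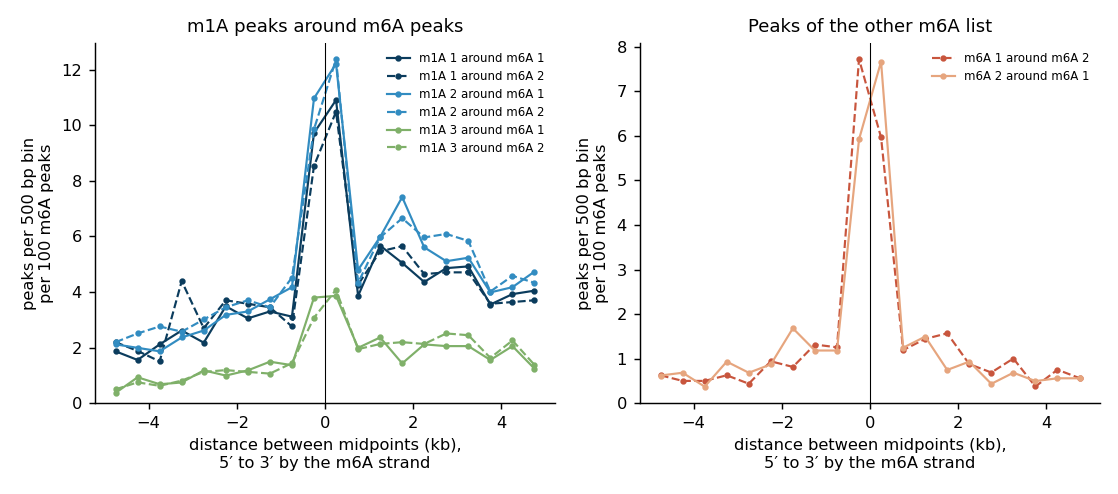
Peaks per 500 bp bin per 100 m6A peaks (vertical axis) by distance between midpoints in kb, 5′ to 3′ by the strand column of the m6A list, for m1A peaks (left) and for peaks of the other m6A list (right); solid lines are around m6A 1 and dashed lines around m6A 2. Pairs with the same midpoint, 26 to 78 on the left and 709 on the right, have no side and are not drawn. On the left all 6 lines hold more peaks on the 3′ than on the 5′ side when summed from 500 bp to 5 kb. Between 500 bp and 1 kb the line of m1A 2 around m6A 2 is lower on the 3′ side (4.33 against 4.52).

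The same measures after ethylene did not set the air lists apart. The mean width difference between m1A and m6A lists was -120.5 bp in air and -111 bp after ethylene (exact permutation p = 0.467 over 120 regroupings within marks, adjusted p = 0.7 over 3 tests). The share of m6A peaks overlapped by an m1A list was 18.1% in air (7.97 to 24.2% over 6 pairs) and 8.09% after ethylene (1.23 to 11.8%), a difference of 9.99 points within the spread of the libraries (exact permutation p = 0.3, adjusted p = 0.7). That share moves with the length of the m1A lists, and the lengths of the ethylene lists are not given here. Exact edges were shared in 74.9% of overlapping pairs in air and 74.3% after ethylene (exact permutation p = 0.833, adjusted p = 0.833). The smallest p of this test was 0.0167, and a p above the threshold does not show that the treatments were alike.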

How the data were processed

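Each library has a deposited list of peaks, giving scaffold, bounds, a name beginning MACS_peak and the authors' score for the peak. Equal groups by score were formed within each list. As alternatives, common cutoffs of at least 100 and at least 3100 were applied to all air lists before the marks were compared. An equal score need not mean equal strength in different lists. The m6A lists add a strand. The deposited coordinates (another kind of value) were read as BED and are printed counted from 1. The submitters' processing notes list MACS 1.4.2, STAR 2.5.1b, CASAVA 1.4 and cutadapt 1.9.3, with a human and a mouse build that the petunia scaffolds do not match; their roles, and the build used, are not given in the sources used here. Peak numbers reach 22337, 25390 and 9216 in the m1A lists and 3690 and 3676 in the m6A lists, above the number of peaks listed, so some numbered peaks are not in the lists.

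Overlap meant at least 1 bp. Regions and loci merged peaks sharing 1 bp or within 1 kb. Libraries were the unit of the exact two-sided permutation tests, adjusted by Benjamini-Hochberg over 5 tests. The air and ethylene comparison was added after the data were seen. Thinning used exact hypergeometric formulas. Functions were tested on simulated data. Named regions were those with both marks in all lists (10 by shared edges, then overlap), the 5 widest of each mark without the other within 1 kb, and the 5 scaffolds with most peaks of each mark. Members, rules and tests were chosen with earlier results of these data known. A planned motif search needed a genome of this build and was not run. Python 3.11.15, pandas 2.3.3 and scipy 1.17.1 were used.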

Additional observations from a re-analysis of the deposited data

How the results depend on the processing

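Over 87 alternatives (2 added after the data were seen) for 9 results, 73 kept the direction and the side of the threshold or stayed within the spread, 12 moved a value and 2 turned a direction. For the 49 alternatives of tested results no p could reach 0.05, so the side of the threshold was fixed in advance. The 47 of these counted as kept had only the same direction, whatever the size of the value. The 2 were the difference in exact edges within minus between marks without either m6A list; leaving out each list gave -3.82 to 10.4 percentage points, against 3.797 with all. The share of m6A loci with m1A, 51.1% with all lists, was 36.3 to 53.2% without each list in turn, 57.3% at a score of at least 100, 48.6% at a score of at least 3100, 44.6% with a joining gap of 500 bp and 72.6% with 5 kb. The mean share of m6A peaks overlapped by an m1A list fell to 9.15% with the m1A lists thinned to the shortest, and to 9.52% over the thinned m1A 1 and m1A 2 alone, with m1A 3 left out. Shared edges between marks rose to 77.6% at a score of at least 3100 and to 77.8% within 10 bp. Neighbours within 1 kb and peaks per scaffold kept their sign after thinning but shrank to 0.877 percentage points and 0.0622.

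Replicate numbers were not shown to pair libraries, since deviations of scaffold counts between m1A and m6A lists of the same number correlated at -0.0103 and -0.0166. With the replicate block over numbers 1 and 2, the width difference was -121 bp, that in neighbours 30.9 points, and that in peaks per scaffold 12.0 (exact permutation p = 0.5 each, the smallest possible). Unknown depth, 2 m6A libraries and different lowest scores limit each comparison of the marks.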
